A study of Mus musculus with 4 samples.

Results

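The Dlk1-Dio3 domain is a cluster of imprinted genes on mouse chromosome 12, and its transcripts were examined in mesenchymal stem cells (MSC), cultured stromal cells able to make bone, cartilage and fat. The members are the maternally expressed noncoding RNAs Meg3, Rian and Mirg and the paternally expressed coding genes Dlk1, Rtl1 and Dio3. Every probe set (a group of short array probes read as 1 value) that the platform annotation assigns to exactly 1 of these 6 symbols was taken, dim ones included. This gave 4 of 18193 genes with 19 of 45037 probe sets, 11 for Meg3, 4 for Rian, 2 for Mirg and 2 for Dlk1. No probe set was assigned to Rtl1 or Dio3 alone, so those genes are not analysed here and the paternal coding side rests on Dlk1. The rule left out 1 probe set that names several symbols, including 1 of the domain. The domain was chosen by the difference in Meg3 and Rian intensity between colonic and bone marrow lines on these same arrays. Differences of its members between tissues are therefore given as a description, with no test.

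The cells were 2 MSC lines from colon, set against 2 MSC lines from bone marrow, all from C57BL/6 mice. Both tissues were dissociated with collagenase and the cells that stuck quickly to plastic were kept. Each line was hybridised to 1 Affymetrix mouse array as amplified, biotin-labelled total RNA. The lines had been cultured in low-glucose medium with 10% serum and were lysed between passages 5 and 10. The labels call the arrays of a tissue biological replicates but do not say whether the lines came from separate animals, nor do they give the animals' age or sex or whether a line was a clone, so p-values measure only the spread between these lines.

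In an imprinted domain the copy of a gene inherited from 1 parent is active and the other is silent. On the maternal chromosome Meg3, Rian and Mirg are transcribed in the same direction as long noncoding RNAs, and Rian and Mirg carry many small nucleolar RNAs and microRNAs in their introns. On the paternal chromosome Dlk1, Rtl1 and Dio3 are active instead, and methylation of a region upstream of Meg3 sets which side is used. Dlk1, also called Pref-1, is a transmembrane protein of the Delta and Notch type that holds back fat cell formation and is used as a preadipocyte marker, and Dio3 is the enzyme that inactivates thyroid hormone.

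The start regions of Meg3 and Dlk1 are shown because these transcripts lie on opposite sides of the imprint and behaved differently on the arrays. The sequences are RefSeq's on GRCm38.p6, plus strand, 250 bases before to 50 after the annotated start, and the table held an entry for 5 of the 6 members. Capitals mark the cAMP response element TGACGTCA, the TATA box TATAAA and the CCAAT box CCAAT on either strand.
Meg3, chr12:109540746-109541045: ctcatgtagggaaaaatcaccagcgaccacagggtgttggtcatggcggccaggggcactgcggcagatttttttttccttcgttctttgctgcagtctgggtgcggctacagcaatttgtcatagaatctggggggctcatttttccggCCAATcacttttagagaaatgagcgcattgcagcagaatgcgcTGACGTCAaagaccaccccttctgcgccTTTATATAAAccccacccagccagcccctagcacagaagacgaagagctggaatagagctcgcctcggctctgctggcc
Dlk1, chr12:109452573-109452872: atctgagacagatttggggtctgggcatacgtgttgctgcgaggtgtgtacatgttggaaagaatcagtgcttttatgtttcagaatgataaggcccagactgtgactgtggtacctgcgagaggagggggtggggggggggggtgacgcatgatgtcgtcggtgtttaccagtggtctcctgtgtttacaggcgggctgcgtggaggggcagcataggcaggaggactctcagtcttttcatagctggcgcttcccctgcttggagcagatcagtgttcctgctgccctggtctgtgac
The Meg3 window held TGACGTCA once, starting 57 bases before the transcript start. It also held a CCAAT box and a TATAAA match that overlaps its own match on the opposite strand. Of 32851 promoter windows of the same length, 1.79% held TGACGTCA, 13.6% held TATAAA and 37.4% held CCAAT. The Dlk1 window held none of these letters, and the windows held 13 (Meg3) and 9 (Dlk1) CpG pairs, against a median of 7 over all windows. The annotated start of Rian had 0 CpG pairs in its window, that of Mirg 10, that of Dio3 25, and a second start of Meg3 had 1.

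The small RNAs of the domain are shown because Rian and Mirg host some of them, although the array did not measure them. RefSeq places 58 microRNA hairpins between Dlk1 and Dio3. On the same strand, 3 lie within its Rian transcript, 10 within its Mirg transcript and 1 within Meg3, while 44 lie within none of these. Among the 113 mature sequences of the 58 hairpins, 9 seeds (bases 2 to 8, in capitals) were shared by more than 1 microRNA. Of those seeds, 3 involved a microRNA from within Rian or Mirg.
miR-370-5p, within Rian: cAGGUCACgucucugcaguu
miR-1193-3p, outside both: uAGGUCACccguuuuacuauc
miR-453, within Mirg: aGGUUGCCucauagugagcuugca
miR-496a-5p, within Mirg: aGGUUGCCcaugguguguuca
miR-410-5p, within Mirg: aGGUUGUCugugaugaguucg
miR-494-5p, outside both: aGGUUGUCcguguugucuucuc

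The deposited values are probe set intensities in arbitrary units. Array medians were 55.5 and 54.4 in the colonic lines, against 54.4 and 53.6 in the bone marrow lines, and the small number of arrays sets how precise any value can be. Differences are given as colonic minus bone marrow on the scale of log2(intensity + 13.6), with limma's standard error (SE) from a fit over all probe sets, and this scale understates the ratio of dim signals. The MSC label was checked against 10 markers, of which 9 had a probe set of their own. Cd44, Itgb1 and Pdgfrb were bright on all 4 arrays (lowest values 4867, 5338 and 3377), whereas Thy1 and Cd34 were at 32.8 or below in both bone marrow lines. Nt5e was dim, at 209 and 27.6 in the colonic lines, against 76.3 and 27.9 in the bone marrow lines. Vcam1 read 2281 and 266 in the colonic lines, against 2206 and 2535 in the bone marrow lines. Eng varied between lines as well (330 and 1035 against 1323 and 445). Pdgfra was lower in both colonic lines than in both bone marrow lines (492 and 743 against 1609 and 2493, a log2 difference of -1.70). In such bulk samples fewer cells of a type and less RNA per cell cannot be told apart.

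In its leading probe sets Meg3 was bright in both colonic lines and dim, below the array median, in both bone marrow lines. With no detection call, the dim readings do not show whether Meg3 was transcribed there. Its brightest probe set, 1439380_x_at, read 11314 and 7041 in colonic replicates 1 and 2, against 44.8 and 43.4 in bone marrow replicates 1 and 2. The tissue means were 9178 ± 3022 in colonic and 44.1 ± 0.962 in bone marrow MSC (SD, n = 2 each), a log2 difference of 7.28 ± 0.36 (SE). The suffix x marks a probe set that may also bind related sequences, so the others matter. Probe set 1452905_at, which has no such mark, read 6162 and 3181 in the colonic lines, against 7.33 and 6.03 in the bone marrow lines, a log2 difference of 7.77 ± 0.44 (SE). Both bone marrow values lay below the lower quartile of their own arrays (15.7 and 15.6), and both colonic values above the upper quartile (642 and 652).

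A further 5 Meg3 probe sets had the same pattern at lower brightness.
Probe set 1452183_a_at read 6044 and 2225 in the colonic lines, against 10.9 and 13.7 in the bone marrow lines, a log2 difference of 7.15 ± 0.56 (SE). Probe set 1426758_s_at, made from the same source sequence, read 4520 and 1763 against 28.6 and 33.0, a difference of 6.00 ± 0.54 (SE). Probe set 1436713_s_at read 2019 and 770 in the colonic lines, against 11.1 and 5.90 in the bone marrow lines. In each of these the lower colonic array lay above the higher bone marrow array by at least 4.99 on the log2 scale. Probe sets 1428765_at and 1452906_at were dimmer, at 600 and 201 and at 391 and 134 in the colonic lines, against 4.24 and 20.2 and 10.0 and 3.85 in the bone marrow lines. Their differences were 3.89 ± 0.63 and 3.59 ± 0.55 (SE).

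The other 4 Meg3 probe sets had the smallest differences. Probe set 1429256_at read 248 and 102 in the colonic lines, against 40.7 and 49.9 in the bone marrow lines, a difference of 1.56 ± 0.48 (SE). Probe set 1436057_at, at 116 and 91.4 against 76.7 and 66.2, and 1429257_at, at 68.3 and 58.1 against 50.3 and 55.8, were higher in both colonic lines by small margins. Probe set 1428764_at read 88.2 and 69.0 in the colonic lines, against 76.0 and 69.1 in the bone marrow lines, where the tissues overlapped. The annotation gives this probe set the same source accession as 1428765_at and 1452905_at, which differed by 3.89 and 7.77. Likewise 1429256_at and 1429257_at share an accession and differed by 1.56 and 0.20. Which exon, isoform or strand each probe set reads is not given in the sources used here, so the spread among Meg3 probe sets from 0.09 to 7.77 is given as measured.

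**Figure D1:**
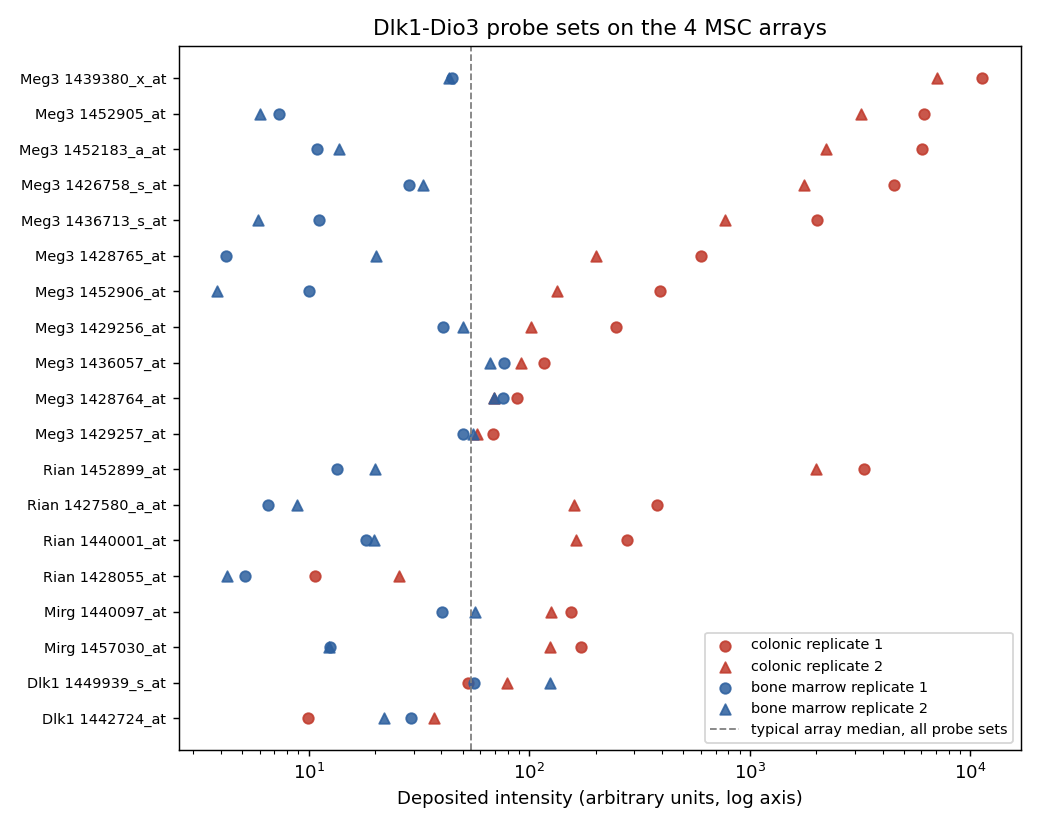
Intensity of each of the 19 Dlk1-Dio3 probe sets (rows) on the 4 arrays, in arbitrary units on a log axis, with colonic lines in red, bone marrow lines in blue, replicate 1 as circles and replicate 2 as triangles. Colonic values of Meg3 reach 11314 and bone marrow values of the maternal noncoding probe sets stay at or below 76.7. The colours mix in the 2 Dlk1 rows and in the Meg3 row 1428764_at, and some dim colonic values also lie below 76.7.

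Rian, the noncoding RNA next to Meg3 that hosts small nucleolar RNAs, followed the same pattern. Its brightest probe set, 1452899_at, read 3293 and 2003 in the colonic lines, against 13.4 and 20.0 in the bone marrow lines. The means were 2648 ± 912 in colonic and 16.7 ± 4.68 in bone marrow MSC (SD, n = 2 each), a log2 difference of 6.42 ± 0.41 (SE). Probe set 1427580_a_at read 379 and 159 in the colonic lines, against 6.54 and 8.89 in the bone marrow lines, and 1440001_at read 278 and 163 against 18.2 and 19.8. Their differences were 3.61 ± 0.46 and 2.80 ± 0.36 (SE). The remaining probe set, 1428055_at, was dim on every array, at 10.6 and 25.7 in the colonic lines, against 5.15 and 4.26 in the bone marrow lines. In each of the 4 Rian probe sets both colonic values lay above both bone marrow values.

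Mirg, the microRNA-containing noncoding RNA at the far end of the maternal transcripts, was much dimmer than the leading Meg3 and Rian probe sets in colonic cells but still separated the tissues. Probe set 1457030_at read 172 and 125 in the colonic lines, against 12.6 and 12.3 in the bone marrow lines, a log2 difference of 2.62 ± 0.28 (SE). Probe set 1440097_at read 155 and 126 against 40.1 and 57.1, a difference of 1.32 ± 0.32 (SE). Intensities of different probe sets are not amounts, so the lower brightness does not rank Mirg below Meg3 in abundance.

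Dlk1, on the paternal side, had values that overlapped between tissues. Probe set 1449939_s_at read 52.9 and 79.1 in the colonic lines, against 56.3 and 124 in the bone marrow lines, and its highest value was in bone marrow replicate 2. The means were 66.0 ± 18.5 in colonic and 90.2 ± 48.0 in bone marrow MSC (SD, n = 2 each), a log2 difference of -0.32 ± 0.44 (SE). Probe set 1442724_at read 9.99 and 36.9 in the colonic lines, against 29.2 and 21.9 in the bone marrow lines, a difference of -0.18 ± 0.41 (SE). In both probe sets the difference was smaller than its standard error. The readings of Dlk1 ran from 9.99 to 79.1 in the colonic lines and from 21.9 to 124 in the bone marrow lines, where array medians were 53.6 to 55.5, and with no detection call they do not show whether Dlk1 was transcribed at a low level or not at all.

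Set side by side, 16 of 17 maternal noncoding probe sets were higher in both colonic lines than in both bone marrow lines, and 0 of 2 Dlk1 probe sets were. Over all probe sets 16.9% were higher in this way, a share beside which the members' count is only a description, since the transcripts were chosen for it. A log2 difference of at least 1 was reached by 13 of the 17, against 2.98% of all probe sets, and one of at least 3 by 9 of the 17, against 0.331%. The median difference was 3.59 for the maternal noncoding probe sets, -0.25 for Dlk1 and 0.000477 for all probe sets. In the bone marrow lines 13 of the 17 lay below the median of both arrays, as did 46.9% of all probe sets. Without the probe sets of shared or related sequences (suffixes s, x and a), 11 of 12 were still higher in both colonic lines, with a median of 2.09.

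**Figure D2:**
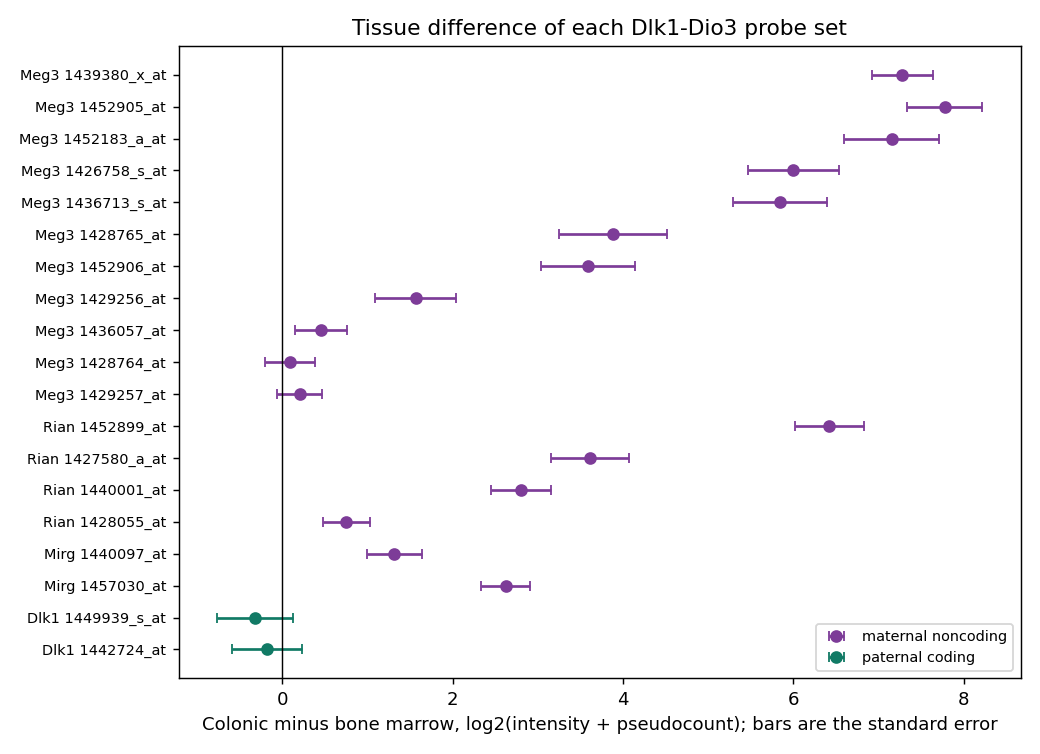
Colonic minus bone marrow difference of each Dlk1-Dio3 probe set on the log2(intensity + pseudocount) scale, with bars showing limma's standard error over 2 arrays per tissue. Maternal noncoding probe sets (purple) run from 0.09 to 7.77, and the 2 Dlk1 probe sets (green) lie at -0.32 and -0.18.

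The 2 colonic lines were not alike. Of the 17 maternal noncoding probe sets, 16 were brighter in colonic replicate 1 than in colonic replicate 2, the exception being the dim Rian probe set 1428055_at. Over all probe sets 48.1% were brighter in colonic replicate 1. The median of replicate 1 minus replicate 2 was 0.72 on the log2 scale for these transcripts in the colonic lines, -0.07 for them in the bone marrow lines and -0.01 in the colonic lines for all probe sets. Among the 9 probe sets that differed most between tissues this step ran from 0.68 in the brightest Meg3 probe set to 1.52 in 1428765_at, with 0.71 in the brightest Rian probe set. These probe sets read Meg3 or Rian on the same 2 arrays, so they are not separate observations of a difference between the lines. Both Dlk1 probe sets went the other way, at -0.48 and -1.10.

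Genes whose values over the 4 arrays were most like those of the brightest Meg3 probe set were ranked by the root mean square difference of their log2 deviations from their own mean. The closest was Cyba, a subunit of the NADPH oxidase, at 0.33, with 5449 and 3840 in the colonic lines, against 27.1 and 36.1 in the bone marrow lines. Next came C1qtnf3, a secreted protein related to complement C1q, at 0.37, with 3662 and 1322 in the colonic lines against 1.66 and 7.76 in the bone marrow lines. Rian followed, at 0.45. The others of the 10 closest were Plac8 (0.50), the insulin-like growth factor binding proteins Igfbp2 (0.58) and Igfbp6 (0.59), the surface glycoprotein Thy1 (0.61), the matrix proteoglycan Dcn (0.72), the sialomucin Cd34 (0.73) and the peptide hormone gene Cck (0.75). Cck read 2122 and 924 in the colonic lines against 14.4 and 8.64 in the bone marrow lines. Like Meg3, it was brighter in colonic replicate 1, as were Cyba, C1qtnf3, Rian, Plac8 and Dcn. Igfbp2, Igfbp6, Thy1 and Cd34 were brighter in colonic replicate 2. Of the 10 other Meg3 probe sets, 1452905_at and 1452183_a_at lay 0.27 and 0.28 from the brightest one, and the other 8 lay farther from it than Cyba did, at 0.68 to 3.60.

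The genes on either side of the domain were compared to show whether the difference ran along the chromosome, with limma over 12930 genes, 1 probe set each, and Benjamini-Hochberg adjustment over all of them. In that test 0 genes (0%) passed an adjusted p of 0.05, and at an unadjusted p below that level 790 genes (6.11%) differed, 441 (3.41%) higher and 349 (2.7%) lower in colonic lines. The count of 0 became 39 without colonic replicate 1 and 29 without colonic replicate 2, and 13 with quantile normalization. Of 39 listed genes 4 had no probe set of their own and 3 were too dim to test. Of the other 32, 31 outside the domain and Dio3os within it, 0 passed in either direction (lowest adjusted p = 0.716 by limma). At the unadjusted level 1 was higher and 0 lower. That gene was Cyp46a1, the cholesterol 24-hydroxylase, at 59.9 and 77.5 in the colonic lines, against 29.6 and 34.7 in the bone marrow lines.

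Differences among the 31 genes outside the domain ran from -0.35 to 1.19 on the log2 scale, with a median of 0.25 against 0.01 for all genes tested. Both colonic lines lay above both bone marrow lines in 17 of the 31 and below in 1, where over all genes 18.6% lay above and 15.1% below. On the Dlk1 side the median was 0.17 over 11 genes and on the Dio3 side 0.25 over 20 genes. The dynein heavy chain gene Dync1h1 read 6701 and 7347 in the colonic lines, against 5451 and 5837 in the bone marrow lines (difference 0.31 ± 0.12, SE, adjusted p = 0.845 by limma). Ankrd9 read 124 and 144 against 91.4 and 59.5, and the microtubule-binding gene Eml1 1171 and 1316 against 926 and 716. None of these passed. Inside the domain Dio3os, the noncoding RNA beside Dio3, read 14.3 and 24.4 in the colonic lines, against 108 and 21.0 in the bone marrow lines. Only bone marrow replicate 1 stood above its array median.

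**Figure D3:**
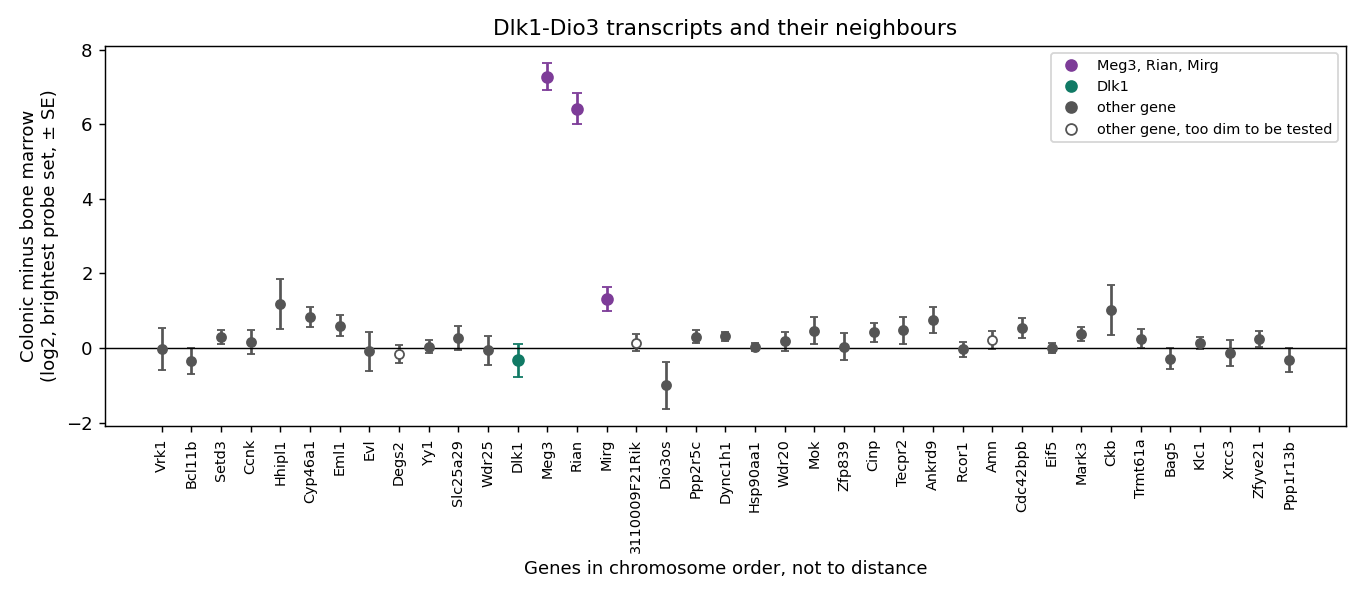
Colonic minus bone marrow log2 difference of the brightest probe set of each gene, with its standard error, for the 4 measured members and their neighbours in chromosome order (spacing is not to distance). Meg3 at 7.28 and Rian at 6.42 stand above every neighbour shown, Mirg lies at 1.32, the genes outside the domain lie between -0.35 and 1.19, and Dio3os inside it lies at -0.99.

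Regulators of imprints and of chromatin at the domain had 16 tested members of 18 listed, and 0 passed in either direction by limma, with 1 higher and 0 lower at the unadjusted level. The higher one was Zfp57, the zinc finger protein that keeps methylation at imprinted regions. It read 68.3 and 97.1 in the colonic lines, against 29.2 and 26.7 in the bone marrow lines, a log2 difference of 1.20 ± 0.29 (SE, adjusted p = 0.549 by limma), all within the dim range. Aff3, a factor that binds near the Meg3 control region, read 404 and 473 against 629 and 768. The methylcytosine oxidase gene Tet1 read 2.80 and 43.1 in the colonic lines, against 77.8 and 32.9 in the bone marrow lines, and Ctcf, the insulator protein, 1407 and 2061 against 2016 and 2494. The maintenance methyltransferase Dnmt1 had a difference of -0.26 ± 0.43 (SE) and the de novo enzyme Dnmt3a -0.01 ± 0.33 (SE). Ezh2, Eed and Suz12, the core of the Polycomb repressive complex that Meg3 RNA has been reported to bind, had differences of -0.39, 0.10 and -0.29. Probe sets disagreed in sign for Tet1 (-1.10 to 0.64), Dnmt3a (-0.05 to 0.59) and Suz12 (-0.60 to 0.06). The list's median was -0.28.

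Partners and targets of Dlk1 were described to see how the pathway around this fat cell inhibitor read in the same lines. Of 14 tested genes 0 passed by limma, and at the unadjusted level 1 was higher and 2 were lower, with a list median of -0.26. Cebpa, the transcription factor that fixes the fat cell state, read 18.3 and 35.1 in the colonic lines, against 872 and 631 in the bone marrow lines (difference -4.26 ± 0.39, SE, adjusted p = 0.0855 by limma). Dlk2, the nearest relative of Dlk1, read 201 and 44.3 in the colonic lines against 915 and 849 in the bone marrow lines, a difference of -3.01 ± 0.70 (SE, adjusted p = 0.533 by limma), and -2.70 in its other probe set. Hes1, a Notch target, was the higher one, at 806 and 529 against 284 and 118. Sox9, the cartilage factor that Dlk1 acts through in preadipocytes, read 63.8 and 21.1 in the colonic lines, against 323 and 96.5 in the bone marrow lines. The probe sets of Sox9 ranged from -1.89 to -0.005. Adam17, the protease that sheds the soluble form of Dlk1, read 1617 and 1924 against 1981 and 1955, and another of its probe sets differed by 0.23.

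Thyroid hormone genes stand in for the pathway of Dio3, which had no probe set of its own. Of 8 tested members 0 passed by limma, and at the unadjusted level 0 were higher and 2 lower. Slc16a10, an amino acid and thyroid hormone transporter, read 102 and 216 in the colonic lines, against 407 and 519 in the bone marrow lines (difference -1.54 ± 0.47, SE, adjusted p = 0.683 by limma). Its probe sets ranged from -2.23 to -0.10. Klf9, a hormone-induced transcription factor, read 4407 and 2329 against 5443 and 8411. Thra, the receptor gene, read 2225 and 1864 in the colonic lines, against 4301 and 2307 in the bone marrow lines, and its coactivator Med1 had a difference of -0.25 ± 0.22 (SE), with 0.13 in another probe set. The activating enzyme Dio2 read 270 in colonic replicate 1 and at most 13.7 on the other arrays in its brightest probe set, and its lowest probe set differed by -0.07.

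Relatives of Rtl1, a gene derived from a retrotransposon, had 6 tested members and 0 past the threshold or the unadjusted level. Rtl5 read 250 and 186 in the colonic lines, against 157 and 81.6 in the bone marrow lines. Rtl6, Arc and the imprinted gene Peg10 had differences of 0.48 ± 0.58, 0.24 ± 0.54 and -0.21 ± 0.32 (SE), whose signs turned when single arrays were left out.

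The enzymes that cut microRNAs from hosts such as Rian and Mirg had 9 tested members, and 0 passed the threshold or the unadjusted level by limma. Drosha, the nuclear enzyme, read 3718 and 4607 in the colonic lines, against 5803 and 4795 in the bone marrow lines. Its partner Dgcr8 read 1665 and 1346 against 1311 and 1038. Dicer1, the cytoplasmic enzyme, read 1446 and 1599 against 981 and 1150, and the effector Ago2 had a difference of 0.15 ± 0.18 (SE). Other probe sets of Dicer1 and Dgcr8 went as low as -0.09 and -0.05. Of the p53 genes, which respond to MEG3 in human cells, only Mdm2 and Cdkn1a had a probe set of their own. Of these, 0 passed the threshold or the unadjusted level. Cdkn1a varied widely, with 20264 and 5824 in the colonic lines, against 6378 and 436 in the bone marrow lines.

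Imprinted genes of other domains had 17 tested members, of which 0 passed by limma and, at the unadjusted level, 2 were higher and 2 lower. Peg3, a paternally expressed zinc finger gene, read 1423 and 755 in the colonic lines, against 14.0 and 7.94 in the bone marrow lines (difference 5.43 ± 0.44, SE, adjusted p = 0.0719 by limma). With single arrays left out its adjusted p was 0.0492 without colonic replicate 1 and 0.0453 without colonic replicate 2, and without bone marrow replicates 1 and 2 it was 0.27 and 0.391, while under the other alternatives it ran from 0.0683 to 0.244 (limma). The probe sets of Peg3 disagreed, with -0.24 in the lowest of 5. Ndn, paternally expressed as well, read 6643 and 8355 in the colonic lines, against 2774 and 1355 in the bone marrow lines. Mest and Ppp1r9a were the lower ones, at 25.1 and 16.8 against 95.7 and 82.4 and at 49.2 and 37.6 against 79.3 and 126. The paternally expressed growth factor gene Igf2 stayed dim, at 42.3 and 41.5 in the colonic lines, against 35.5 and 70.2 in the bone marrow lines. Other probe sets of Ppp1r9a and Ndn reached 0.09 and -0.04. The list's median was 0.07.

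**Figure D4:**
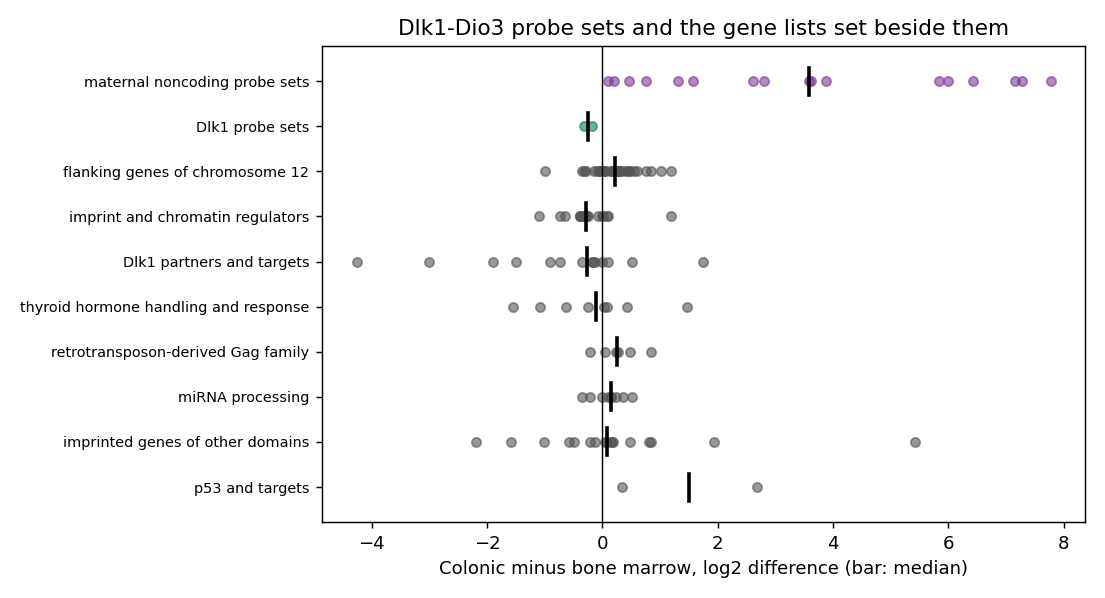
Colonic minus bone marrow log2 differences of the maternal noncoding probe sets, the Dlk1 probe sets and the tested genes of 8 lists set beside them, 1 point per probe set or gene, with a black bar at the median. The maternal noncoding median is 3.59, while list medians lie between -0.28 and 0.26 apart from the p53 list, which holds 2 genes.

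Markers of other cells that can express these transcripts were read beside them. The 4 skeletal muscle markers were at or below 22.1 on every array, and 5 of 8 neuron and glia markers stayed below 100 throughout. Summed neuron and glia signals were 1365 and 490 in the colonic lines, against 1252 and 608 in the bone marrow lines, and the 3 brighter markers ran in different directions. Uchl1 read 814 and 100.3 in the colonic lines, against 87.0 and 91.5 in the bone marrow lines, and Tubb3 328 and 142 against 163 and 162, so that both were highest in colonic replicate 1, as Meg3 was. Ret read 105 and 154 in the colonic lines, against 860 and 235 in the bone marrow lines. Summed neuroendocrine signals were 236 and 240 against 270 and 268. Summed macrophage signals, with Tyrobp at or below 2.15, were 1638 and 1561 against 2833 and 1083. They came mostly from Lyz2, Cd14 and Csf1r. Lyz2 read 150 and 590 in the colonic lines, against 1589 and 31.7 in the bone marrow lines. Cd14 read 963 and 573 against 810 and 735, and Csf1r 324 and 244 against 266 and 148. Endothelial sums were higher in the colonic lines, at 239 and 177 against 132 and 100.4, with all 5 markers below 100 and Pecam1 at or below 2.48. Smooth muscle sums were 43610 and 37617 in the colonic lines, against 33993 and 23387 in the bone marrow lines. Cnn1 read 11529 and 8477 against 8623 and 33.0, while Acta2 and Actg2 had differences of 0.06 and 0.57. Des and Myh11 were at 2379 and 1123 in colonic replicate 1 and at most 52.4 on the other arrays. Adipocyte sums were 536 and 135 in the colonic lines against 5192 and 4938, carried by Fabp4. Intestinal epithelial sums were 1164 and 168 against 315 and 331, with Krt20 at 889 in colonic replicate 1. Lgr5 and Krt8 were lower in both colonic lines, at 12.9 and 9.30 against 124 and 73.1 and at 39.1 and 27.5 against 43.6 and 44.7. Epcam, Vil1 and Muc2 stayed at or below 25.6 on every array. The pacemaker cell markers Kit and Ano1 summed to 919 and 97.3 against 326 and 100.3. The part of these cells in the Meg3, Rian and Mirg signals was not tested.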

How the data were processed

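The authors deposited 1 table of probe set intensities for 4 arrays, which hold decimals, none negative, and reach 20912, so the scale was taken as linear. How probes were summarised, corrected for background and scaled is not given in the sources used here, and array log2 medians lay within 0.04. After 64 control probe sets were left out, 34945 probe sets had 1 symbol in the platform annotation, 932 several and 9160 none, and symbols were updated by gene ID. Values were analysed as log2(intensity + 13.6), where 13.6 is a pseudocount set at 0.25 of the table median. For gene tests the brightest probe set above the 40th percentile (intensity 33.3) stood for its gene, which lets a gene pass through 1 tissue alone. Of the 19 member probe sets, 17 passed that filter. Tissues were compared with limma 3.58.1 (lmFit, eBayes with trend) in R 4.3.3, two-sided. On simulated data, with normal noise drawn from limma's fitted variances, this test called 23.4% of genes given a log2 change of 2, 76.4% at 4 and 89.5% at 6. In the deposited data 0 genes passed, although Thy1 differed by 7.30 (adjusted p = 0.0508 by limma). The simulated shares may therefore overstate what could be called here. A count of 0 genes past the threshold therefore does not show that a list was unchanged.

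Members and lists were chosen with earlier results of these data known. List genes named are the 4 with the lowest p in each list, and likeness names the 10 closest genes. Further list members (Dnmt1, Dnmt3a, Ezh2, Eed, Suz12, Adam17, Dio2, Igf2, Dio3os and the markers) were named after their values were seen. Alternatives covered scaling, pseudocount, filter, probe set rule, moderation, replicate block and single arrays left out. With 2 arrays per tissue, no exact permutation p was computed.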

Additional observations from a re-analysis of the deposited data

How the results depend on the processing

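The median difference of the maternal noncoding probe sets stayed positive under every alternative run, at 4.84 with a pseudocount of 1, 2.24 with the table median as pseudocount, 2.09 with the unsuffixed probe sets alone (chosen after seeing the data) and between 2.86 and 4.20 when single arrays were left out, the lowest without colonic replicate 1. The pseudocount changes these values by its construction, since the bone marrow signals are dim. Meg3 and Rian, which hold most of these probe sets, were chosen by this same difference, so the sign of the median is only a description. Under quantile normalization and median centring, 16 of the 17 were higher in both colonic lines. With single arrays left out the count was 16 to 17, but leaving out an array can only keep or raise it, so this is no check. The Dlk1 median ran from -0.64 to 0.15 with single arrays left out, and 0 to 1 of its probe sets were then higher in the colonic lines. The difference of the Meg3 probe set 1428764_at ran from -0.06 to 0.24. Genes past an adjusted p of 0.05 by limma, 0 as reported, numbered 13 under both quantile normalization and median centring, 10 when the pseudocount was 1, 10 when only the probe sets above the 60th percentile were used, 6 without an intensity trend and 0 to 39 with single arrays left out. With the replicate block the count was 0, and same-numbered arrays share only a number (correlation of deviations 0.13), so no pairing was assumed. With single arrays left out, differences ran from -0.10 to 0.78 for Mdm2, -0.35 to 0.83 for Arc, -0.28 to 1.24 for Rtl6 and -0.51 to 0.10 for Peg10. The cause of these changes was not tested. A lone array of a tissue was assumed to vary like the other tissue, and with no detection call, dim signals have no lower bound.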
